A study of Solanum tuberosum with 9 samples.

Results

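Expansins and xyloglucan endotransglucosylase/hydrolases (XTHs) were examined as 2 gene families of the potato leaf. Members were the genes whose product name holds the word expansin or xyloglucan endotransglucosylase. Among the 24169 genes listed in either comparison, 49 were members, of which 22 were expansins and 27 were XTHs. By product name, the expansins were 14 alpha-expansins, 3 beta-expansins and 5 expansin-like genes. All 49 members were found in the RefSeq gene table of the SolTub_3.0 assembly as protein-coding genes, with the same contig coordinates as in the deposited tables.

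Leaves came from untreated greenhouse plants of the diploid population 15-1 at full anthesis. The population was raised from a cross of the Solanum hybrid DG 88-89 with the wild species S. chacoense. Bulk F’, labelled hormesis, was made from individuals whose leaf extracts stimulated the growth of mustard seedlings. Bulk B’ was made from individuals of low phytotoxicity and bulk A’ from individuals of high phytotoxicity, and the plants of all 3 bulks had high glycoalkaloid contents. Each bulk pooled leaves of 3 individuals, so that it shows those few genotypes. Each was sequenced as 3 libraries, 9 in all, and the sources do not say how the libraries of a bulk arose. The p-values may therefore measure only the spread between repeat libraries of a single pool. Library totals were between 21199110 and 22517178 counts. Replicate libraries differed by more than sampling noise, and none was a copy of another.

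Expansins are small wall proteins that loosen the contact between cellulose and matrix glycans without cutting them, and alpha-expansins do so best at acid pH. XTHs act on xyloglucan, the main matrix glycan that tethers cellulose in the walls of dicots. They cut a xyloglucan chain and join the new end to another chain, and some members hydrolyse it instead. Both families are known from growing organs, where the wall must yield for cells to enlarge, and both have members that respond to hormones, touch or shade.

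The summed level of the expansins was lowest in F’. CPM values (counts relative to library size, with the 9 libraries scaled by TMM) of the 19 expansins listed in both comparisons added up to 150.8, 147.5 and 152.5 in the F’ libraries. The sums were 467.7, 447.0 and 363.6 CPM in the B’ libraries and 624.9, 559.2 and 593.2 CPM in the A’ libraries. The 3 bulks did not overlap, and F’ also had the narrowest spread. Expansin-A8 was first in each bulk, with 21.6% of the sum in F’ and 30.0% in B’, against 39.8% in A’.

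The 25 XTHs listed in both comparisons added up to 695.9, 824.0 and 714.6 CPM in the F’ libraries. Their sums were 1034.7, 1003.7 and 867.4 CPM in the B’ libraries and 1499.9, 1303.8 and 1271.5 CPM in the A’ libraries. The order of the bulks was that of the expansins, with a relatively smaller gap between F’ and B’. The sum rested on few genes. XTH7 took 38.6% of it in F’ and 28.5% in B’, against 49.9% in A’, and XTH24-like took 34.2% in F’ and 30.8% in B’, against 32.3% in A’, so that XTH24-like was first in B’. Pooled over the bulks, the 3 genes with the most reads took 83.9%. An exact two-sided permutation test of such a single value cannot give a p below 0.1 with 3 libraries against 3. In RNA of whole leaves, fewer cells of a type and less RNA per cell cannot be told apart.

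**Figure D1:**
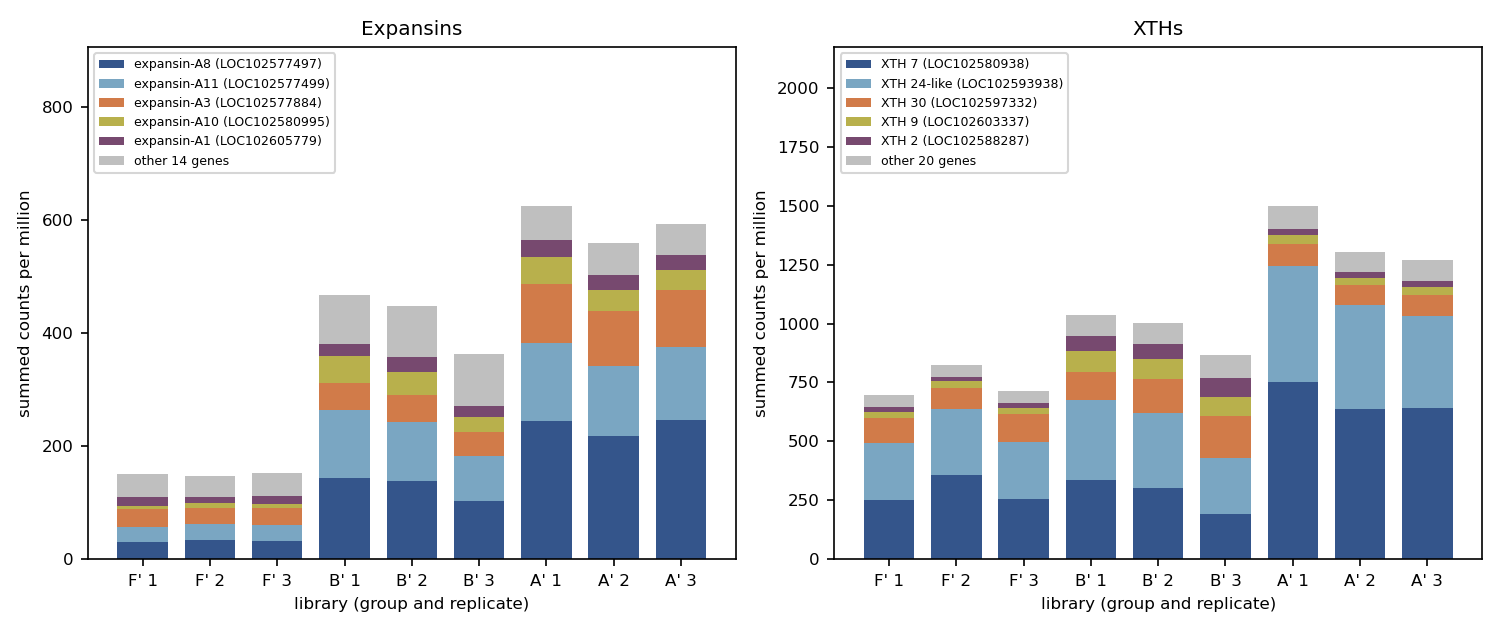
Summed CPM of the expansins (left, 19 genes) and of the XTHs (right, 25 genes) in each of the 9 libraries, stacked by gene with the 5 genes of most reads coloured. Expansin sums lay between 147.5 and 152.5 in F’, against 559.2 to 624.9 in A’, and the XTH sums of F’ and B’ were closer to each other.

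The leaf label was checked by the RuBisCO small subunit, whose 4 genes summed to between 17269 and 19635 CPM in F’, 13772 and 14762 CPM in B’ and 20320 and 25887 CPM in A’. Summed markers of other cell types also differed between some of the bulks and overlapped between others, and their part in the results below was not tested. The 3 sieve element occlusion genes, a phloem marker, summed to between 1.01 and 1.49 CPM in F’, 1.05 and 5.02 CPM in B’ and 5.67 and 6.94 CPM in A’. The 3 secondary-wall cellulose synthases of xylem summed to between 6.02 and 8.28 CPM in F’, 5.31 and 5.77 CPM in B’ and 9.06 and 12.7 CPM in A’. The sum of 13 of 14 listed mitotic cyclins was between 194 and 239 CPM in F’, 161 and 183 CPM in B’ and 132 and 175 CPM in A’, most of it from a single cyclin-B1-2-like gene. Without that gene, the other 12 summed to between 28.3 and 33.9 CPM in F’, 28.6 and 31.7 CPM in B’ and 33.6 and 36.3 CPM in A’. The tuber protein patatin (14 of 18 listed genes) summed to between 108 and 134 CPM in F’, 158 and 237 CPM in B’ and 136 and 159 CPM in A’. Every listed gene had at least 5 reads over the 6 libraries of its comparison. No gene of these lists could therefore be at 0 in all libraries.

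The F’ vs. A’ comparison asks how leaves whose extracts stimulate mustard differ from those of high phytotoxicity. Most of the tested expansins were lower in F’. Of the 15 expansins with enough reads for edgeR’s quasi-likelihood test, 10 were called lower (66.7%) at an FDR under 0.05 over all genes tested, and 5 were not called. Over all 19132 genes tested in F’ vs. A’, 35.6% were called, with 18.2% lower and 17.5% higher. The median Log2FC was −1.10 over the tested expansins and 0.02 over all genes tested. The edgeR test called 0 expansins higher, while 1 had an unadjusted p under 0.05 in that direction and DESeq2 called another. All F’ libraries lay below all A’ libraries for 11 of the 15 expansins, against 23.9% of all genes tested, of which 47.7% had no overlap in either direction.

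Alpha-expansins, the acid-dependent wall-loosening group, held 8 of these calls among 10 tested genes. Expansin-A8 (LOC102577497, chromosome 6, contig positions 511183 to 512967) had 30.8, 34.2 and 32.3 CPM in F’ and 143, 138 and 102 CPM in B’, against 244, 218 and 245 CPM in A’. The F’ libraries lay far below all others. The Log2FC was −2.85 ± 0.123 (SE) in F’ vs. A’ (FDR = 1.57e-09, edgeR) and −0.88 ± 0.142 in B’ vs. A’ (FDR = 0.000675). This member of the alpha group thus ranked in one order in all libraries, with F’ lowest, B’ between and A’ highest.

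Expansin-A3 (LOC102577884) showed that order as well. It had 31.4, 29.3 and 30.3 CPM in F’ and 47.3, 47.6 and 42.8 CPM in B’, against 104, 96.6 and 100 CPM in A’. The groups did not overlap, and the Log2FC was −1.71 ± 0.112 in F’ vs. A’ (FDR = 7.11e-08) and −1.12 ± 0.111 in B’ vs. A’ (FDR = 1.86e-05). A direct test of F’ vs. B’ gave −0.60 ± 0.106 (FDR = 0.00182).

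Expansin-A11 (LOC102577499) and expansin-A10 (LOC102580995) were called lower in F’ vs. A’ and in F’ vs. B’, and were not called in B’ vs. A’. Expansin-A11 had 25.7, 27.6 and 28.3 CPM in F’ and 121, 104 and 79.8 CPM in B’, against 139, 124 and 131 CPM in A’. The Log2FC was −2.26 ± 0.116 in F’ vs. A’ (FDR = 6.71e-09) and −1.91 ± 0.155 in F’ vs. B’ (FDR = 1.5e-05), and that of B’ vs. A’ did not pass (−0.36, FDR = 0.0797) although all B’ libraries lay below all A’ libraries. Without B’ replicate 1 the B’ vs. A’ difference of expansin-A11 passed (−0.51), with an FDR between 0.0208 and 0.194 over the alternatives. Expansin-A10 had 6.67, 8.28 and 7.34 CPM in F’ and 48.6, 41.8 and 27.0 CPM in B’, against 48.5, 37.2 and 34.9 CPM in A’. Its B’ and A’ libraries overlapped, with a Log2FC of −0.03 and a 95% interval of −0.47 to 0.40. The Log2FC was −2.42 ± 0.15 in F’ vs. A’ (FDR = 4.39e-08) and −2.41 ± 0.211 in F’ vs. B’ (FDR = 2.33e-05).

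The other alpha-expansins called lower in F’ vs. A’ changed less. Expansin-A1 and both loci named expansin-A6 had Log2FC values between −1.10 and −0.93, and expansin-A13-like had −0.39 (FDR = 0.0376). The call of expansin-A13-like held in only 4 of 11 alternative settings. Expansin-A13 (LOC102577708) had 10.5, 11.2 and 9.79 CPM in F’ and 11.8, 10.8 and 9.91 CPM in B’, against 10.5, 8.47 and 8.12 CPM in A’. Its libraries overlapped in every pair of bulks, and no comparison called it. Expansin-A3-like was not called in any comparison either.

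Of the 3 beta-expansins, the group best known from grass pollen and grass cell walls, 2 had enough reads for the test. Expansin-B3 (LOC102598311, chromosome 7, contig positions 283838 to 288479) was nearly without reads in F’. Its raw counts were 8, 3 and 1 in F’ and 221, 170 and 122 in B’, against 99, 96 and 72 in A’. The Log2FC was −4.63 ± 0.399 in F’ vs. A’ (FDR = 9.4e-07) and −5.28 ± 0.459 in F’ vs. B’ (FDR = 2.22e-05), the largest changes of any tested expansin in these comparisons. It passed the filter through its A’ counts in F’ vs. A’ and through its B’ counts in F’ vs. B’. Both calls held in all 11 alternative settings, among them no filter, with an FDR of up to 8.8e-06 and 0.000194. In B’ vs. A’ it was 0.63 (FDR = 0.0615), and without B’ replicate 3 that difference passed, with an FDR between 0.00443 and 0.221 over the alternatives.

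Expansin-B3-like (LOC102599581) followed the order of expansin-A8. It had 1.01, 1.16 and 1.40 CPM in F’ and 4.31, 4.89 and 4.45 CPM in B’, against 10.2, 10.6 and 8.12 CPM in A’. The Log2FC was −3.00 ± 0.202 in F’ vs. A’ (FDR = 8.85e-08) and −1.08 ± 0.161 in B’ vs. A’ (FDR = 0.000378). The third beta-expansin, EXPB1, was listed only in F’ vs. A’, with raw counts of 1, 2 and 2 in F’ against 0, 0 and 0 in A’, and was not tested.

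Expansin-like genes resemble expansins in sequence and have no established wall-loosening activity. Of the 3 tested, 2 were called higher in B’ vs. A’ and the same 2 were called lower in F’ vs. B’, and the 3 were not called in F’ vs. A’. Over all genes tested, 16.4% were called higher in B’ vs. A’ and 16.3% lower in F’ vs. B’. These comparisons share the B’ libraries, so their calls are not independent. EXLA1 (contig positions 267766 to 269254, no chromosome given) had 11.3, 7.85 and 11.9 CPM in F’ and 33.8, 36.0 and 48.1 CPM in B’, against 6.73, 6.15 and 9.99 CPM in A’. The B’ libraries lay above all others. The Log2FC was 2.37 ± 0.200 in B’ vs. A’ (FDR = 5.67e-06), the largest rise of an expansin there, and −1.93 ± 0.188 in F’ vs. B’ (FDR = 4.59e-05). In F’ vs. A’ it was 0.46 (FDR = 0.0928), which passed without F’ replicate 2 (0.60) and without A’ replicate 3 (0.70), with an FDR between 0.0239 and 0.291 over the alternatives.

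Of 3 expansin-like B1 loci that lie in a row on a contig of chromosome 8, 1 was listed only in B’ vs. A’ and had at most 2 reads in a library. LOC102592278 was not called in any comparison. LOC102592623, named here after its values were seen, had raw counts of 14, 6 and 14 in F’ and 0, 2 and 6 in B’, against 0, 3 and 1 in A’. Its reads were too few for the filter, and its F’ level was at least 3.22-fold higher than in A’, taking 3 counts in each A’ library as the floor. It could pass that filter only through F’, the bulk in which it was high, so calls made where it entered the test are no support for the difference. A further expansin-like B1 locus, LOC102578252, had 0.169, 0.578 and 0.0874 CPM in F’ and 1.34, 1.60 and 1.25 CPM in B’, against 0.583, 0.935 and 0.676 CPM in A’. It was called lower in F’ vs. B’ (Log2FC −2.35 ± 0.523, FDR = 0.00709), where it passed the filter through its B’ counts. That call held in all 11 alternative settings, among them no filter. Its rise in B’ vs. A’ (0.93, FDR = 0.0398) held in only 3 of 11 alternative settings.

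**Figure D2:**
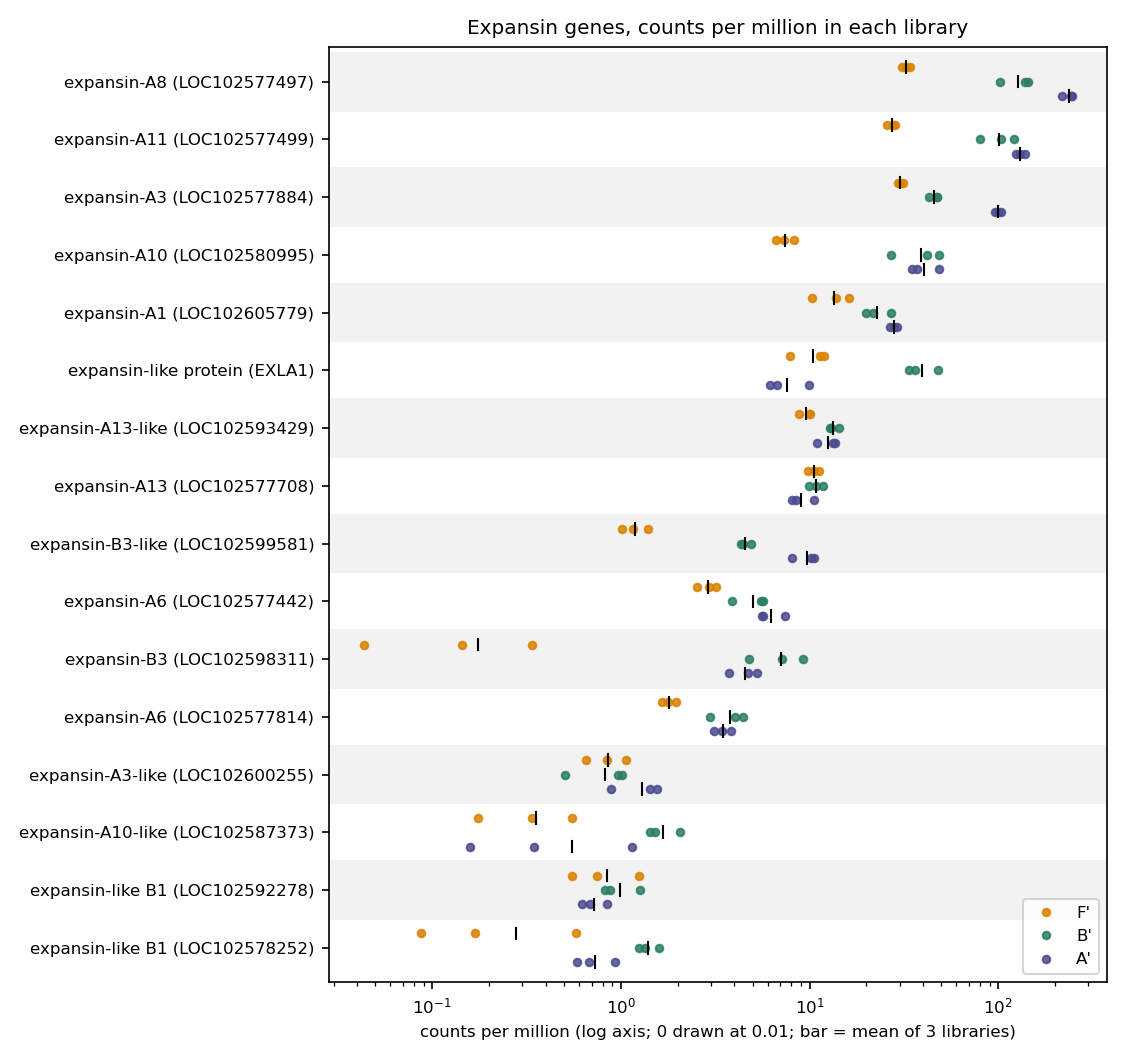
CPM of the 16 expansins tested in at least 1 comparison, on a log axis, with a point for each library and a black bar for the mean of the 3 libraries of a bulk. F’ points lie left of A’ points for expansin-A8, A11, A3, A10, A1, B3 and B3-like, and EXLA1 is highest in B’ (33.8 to 48.1).

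The B’ vs. A’ comparison sets leaves of low phytotoxicity against those of high phytotoxicity. Here the shares of expansins called in each direction were near those of all genes. Of 16 tested expansins, 3 were called higher and 3 were called lower (18.8% each), beside 32.9% called among all 19059 genes tested, with 16.4% higher and 16.5% lower. The median Log2FC was 0.03, against 0.02 over all genes. Those called lower were expansin-A8, expansin-A3 and expansin-B3-like. Those called higher were EXLA1, LOC102578252 and expansin-A10-like (LOC102587373), which had 1.51, 1.43 and 2.07 CPM in B’ against 0.159, 0.345 and 1.14 CPM in A’ (Log2FC 1.60, FDR = 0.0295). This gene passed the filter through its B’ counts. Its A’ libraries were far apart, and its call was lost without B’ replicate 3, A’ replicate 1 or A’ replicate 2. Its Log2FC was between 1.19 (without A’ replicate 1) and 2.70 (without A’ replicate 3), with an FDR of up to 0.113. Without A’ replicate 1, only 1 expansin was called higher.

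The direct F’ vs. B’ test called 13 of 16 expansins lower (81.2%) and 3 were not called. Of those called, expansin-B3, expansin-A10-like and LOC102578252 passed the filter through B’, the bulk in which they were high. Among all 19308 genes tested, 30.0% were called, with 16.3% lower and 13.7% higher. All F’ libraries lay below all B’ libraries for 13 of the 16 expansins, against 23.0% of all genes, and 44.3% of all genes had no overlap in either direction. The median Log2FC was −1.50 over the tested expansins and −0.00021 over all genes. The median was −0.81 with DESeq2 and −0.82 without the filter, and with a library left out it was between −1.53 and −0.96 (without B’ replicate 2). In edgeR, 0 expansins were called higher, 0 had an unadjusted p under 0.05 in that direction and DESeq2 called 0. Without F’ replicate 2 or without B’ replicate 3, edgeR called 1 higher, LOC102592623, which passed the filter through F’. F’ vs. A’ and B’ vs. A’ share the A’ libraries, and 7 of the expansins called lower in F’ vs. A’ were not called in B’ vs. A’, while 3 were called lower in both. Over the 18673 genes tested in both comparisons these shares were 8.79% and 8.22%. F’ had the lowest mean for 12 of the 16 expansins and the highest mean for 0, beside 31.7% and 34.4% of all genes.

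The remaining expansins were too low for the test in every comparison. There were 6 of them, among them LOC102592623 and EXPB1. Expansin-A15-like (LOC102596629) had raw counts of 3, 6 and 0 in F’ and 2, 6 and 2 in B’, against 7, 11 and 9 in A’, and the other 3 had at most 2 reads in any library. For these 3 and EXPB1, a difference was not detectable at this depth.

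XTHs were called in both directions. In F’ vs. A’, 9 of 20 tested XTHs were called lower (45.0%) and 2 were called higher, with a median Log2FC of −0.35. This median was −0.61 without F’ replicate 3 and −0.29 without F’ replicate 2, and −0.60 in the joint fit. In B’ vs. A’, 10 of 22 were called higher (45.5%) and 7 were called lower (31.8%), with a median of 0.66. Without A’ replicate 1, 4 were called lower in B’ vs. A’. The shares of all genes called were 18.2% lower and 17.5% higher in F’ vs. A’, and 16.4% higher and 16.5% lower in B’ vs. A’. In the direct F’ vs. B’ test, 14 of 22 XTHs were called lower (63.6%) and 2 were called higher, against 16.3% and 13.7% of all genes. Of those called lower, LOC102588714, LOC102594338, LOC102594670, LOC102598420, LOC102598758 and LOC102599527 passed the filter through B’, the bulk in which they were high. Their calls held in all 11 alternative settings, among them no filter.

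In both F’ vs. A’ and B’ vs. A’, which share the A’ libraries, 6 XTHs were called lower, beside 8.22% of all genes tested in both. These held most of the reads of the family. XTH7 (LOC102580938, chromosome 2, contig positions 9438 to 11140) had 251, 356 and 256 CPM in F’ and 336, 300 and 191 CPM in B’, against 753, 639 and 643 CPM in A’. The Log2FC was −1.22 ± 0.149 in F’ vs. A’ (FDR = 2.47e-05) and −1.29 ± 0.186 in B’ vs. A’ (FDR = 0.000299). F’ and B’ overlapped, with a Log2FC of 0.05 and a 95% interval of −0.42 to 0.52.

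XTH24-like (LOC102593938), whose Arabidopsis namesake was first found as a gene of the shoot meristem, was second in reads in F’ and A’ and first in B’. It had 242, 282 and 241 CPM in F’ and 338, 319 and 239 CPM in B’, against 491, 439 and 388 CPM in A’. The Log2FC was −0.77 ± 0.128 in F’ vs. A’ (FDR = 0.000343) and −0.55 ± 0.150 in B’ vs. A’ (FDR = 0.0153). Without A’ replicate 1, the B’ vs. A’ call was lost, and its FDR was between 0.00240 and 0.0621 over the alternatives.

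XTH28 (LOC102599785), known in Arabidopsis for the growth of stamen filaments, stood in the order F’, B’, A’ with no overlap. It had 19.1, 24.3 and 21.8 CPM in F’ and 37.4, 37.6 and 33.2 CPM in B’, against 52.6, 48.7 and 53.8 CPM in A’. The Log2FC was −1.24 ± 0.122 in F’ vs. A’ (FDR = 3.29e-06), −0.51 ± 0.114 in B’ vs. A’ (FDR = 0.00492) and −0.74 ± 0.123 in F’ vs. B’ (FDR = 0.00135).

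XTH1 (LOC102603929) was also lower in both bulks. It had 0.929, 2.98 and 1.14 CPM in F’ and 3.77, 3.54 and 3.51 CPM in B’, against 11.3, 8.42 and 5.57 CPM in A’. The Log2FC was −2.33 ± 0.351 in F’ vs. A’ (FDR = 0.000156) and −1.21 ± 0.232 in B’ vs. A’ (FDR = 0.00196), and F’ replicate 2 was the highest of its bulk. XTH8 (LOC102592757) and XTH32 (LOC102580643) had smaller values. Their Log2FC values were −1.48 and −1.20 in F’ vs. A’ and −0.87 and −0.83 in B’ vs. A’, and the B’ vs. A’ calls of both were lost without B’ replicate 2, A’ replicate 1 or A’ replicate 2, with an FDR of up to 0.0950 and 0.0925.

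A further 6 XTHs were called higher in B’ vs. A’ and were not called in F’ vs. A’, beside 7.72% of all genes tested in both. XTH9 (LOC102603337) had 26.7, 30.2 and 29.0 CPM in F’ and 89.7, 87.8 and 79.7 CPM in B’, against 37.7, 31.0 and 31.4 CPM in A’. The B’ libraries lay above all others, with a Log2FC of 1.37 ± 0.123 in B’ vs. A’ (FDR = 9.29e-06) and −1.59 ± 0.111 in F’ vs. B’ (FDR = 6.24e-06). The F’ vs. A’ difference did not pass (−0.21, FDR = 0.191).

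XTH15-like (LOC102598951), whose Arabidopsis namesake responds to shade, had the largest Log2FC of an XTH in B’ vs. A’. It had 4.39, 1.35 and 3.10 CPM in F’ and 10.002, 9.79 and 16.6 CPM in B’, against 1.75, 2.26 and 2.34 CPM in A’. The Log2FC was 2.52 ± 0.245 in B’ vs. A’ (FDR = 1.64e-05) and −2.03 ± 0.351 in F’ vs. B’ (FDR = 0.00171). In F’ vs. A’ it was 0.50 (FDR = 0.279), and it passed without F’ replicate 2 (0.82), with an FDR between 0.0172 and 0.877 over the alternatives.

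XTH30 (LOC102597332), the third XTH in reads, rose less. It had 106, 87.4 and 117 CPM in F’ and 122, 144 and 180 CPM in B’, against 96.0, 84.5 and 91.9 CPM in A’. The Log2FC was 0.72 ± 0.147 in B’ vs. A’ (FDR = 0.00314) and 0.20 in F’ vs. A’ (FDR = 0.243). The F’ vs. B’ difference (−0.53, FDR = 0.0328) was lost in 5 of 11 alternative settings, which were upper-quartile scaling and leaving out F’ replicate 1 or 2 or B’ replicate 2 or 3.

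The calls of 3 XTHs in F’ vs. A’ and B’ vs. A’ pointed in opposite directions, beside 2.91% of all genes tested in both. F’ and B’ then had to differ, and their F’ vs. B’ values are a description. XTH2 (LOC102588287) had 20.6, 16.6 and 21.1 CPM in F’ and 59.9, 63.9 and 79.8 CPM in B’, against 25.6, 24.6 and 28.0 CPM in A’. It was higher in B’ (Log2FC 1.39 ± 0.137, FDR = 1.84e-05) and slightly lower in F’ (−0.41 ± 0.127, FDR = 0.0211). The F’ vs. A’ call was lost without A’ replicate 3, and its FDR was between 0.0181 and 0.0969 over the alternatives.

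XTH27 (LOC102601287), known in Arabidopsis from the veins of rosette leaves, showed the same directions with larger changes. It had 3.72, 4.04 and 3.50 CPM in F’ and 16.7, 18.6 and 19.1 CPM in B’, against 11.8, 7.09 and 7.91 CPM in A’. No 2 bulks overlapped. The Log2FC was −1.24 ± 0.199 in F’ vs. A’ (FDR = 0.000268), 1.03 ± 0.179 in B’ vs. A’ (FDR = 0.00104) and −2.28 ± 0.135 in F’ vs. B’.

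XTH31-like (LOC102599489), whose Arabidopsis namesake mainly hydrolyses xyloglucan, moved the other way. It had 5.74, 6.55 and 5.94 CPM in F’ and 1.42, 1.60 and 1.76 CPM in B’, against 5.35, 4.09 and 3.59 CPM in A’. The Log2FC was −1.43 ± 0.231 in B’ vs. A’ (FDR = 0.000629) and 1.92 ± 0.190 in F’ vs. B’. The F’ vs. A’ call (0.50 ± 0.182, FDR = 0.0464) was near the threshold and held in only 2 of 11 alternative settings.

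**Figure D3:**
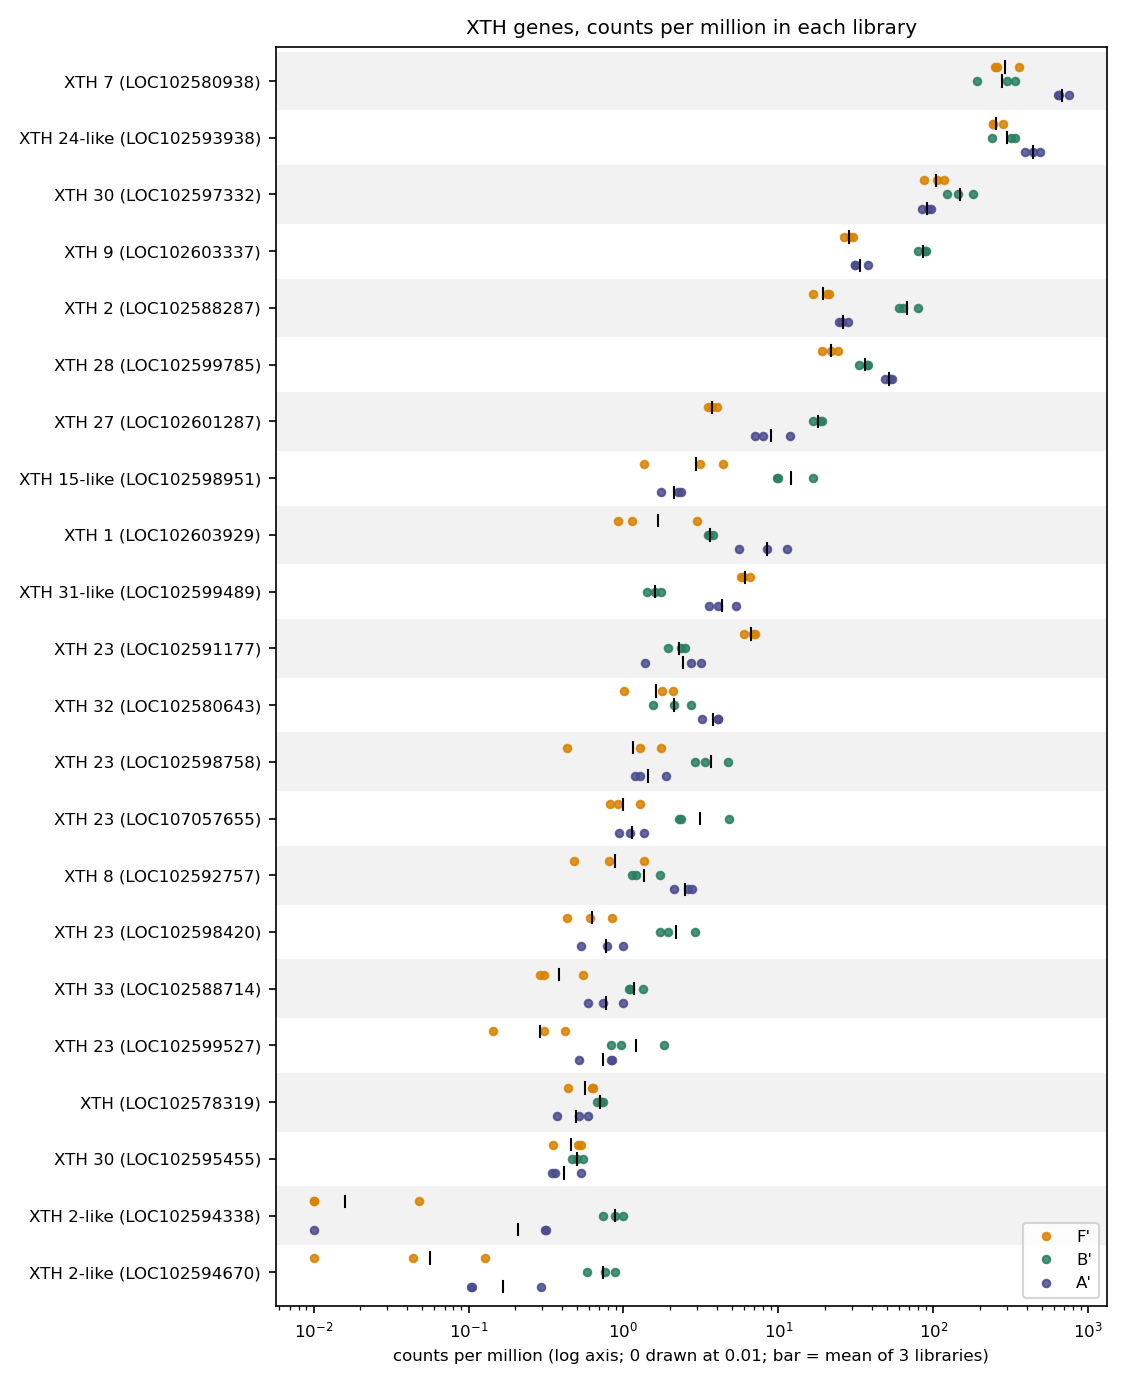
CPM of the 22 XTHs tested in at least 1 comparison, on a log axis, with a point for each library and a black bar for the mean of the 3 libraries of a bulk. XTH7 and XTH24-like, the members of most reads, are highest in A’, while XTH9, XTH2, XTH27 and XTH15-like are highest in B’.

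The name XTH23 was given to 5 loci, and 4 of them lie in a row on a contig whose placed genes are on chromosome 3, with gaps of 5277, 3207 and 2143 bp between neighbours. Reads of such near copies could have been split or shared between loci by the authors’ counting, so the loci are uncertain taken singly. LOC102598758 and LOC102599527 also carry the same PGSC gene name in the deposited annotation. The 4 tandem loci had between 0.144 and 1.75 CPM in F’ and between 0.837 and 4.80 CPM in B’, against 0.52 to 1.87 CPM in A’. Of these 4, 3 were called higher in B’ vs. A’, with Log2FC values of 1.36 (LOC102598758), 1.48 (LOC107057655) and 1.51 (LOC102598420) and FDR values of 0.00317, 0.00622 and 0.00473. LOC102599527 had 0.73 there (FDR = 0.171) and was called lower in F’ vs. A’ (−1.29, FDR = 0.0445), which held in only 2 of 11 alternative settings. In F’ vs. A’, LOC102599527 passed the filter through its A’ counts. All 4 tandem loci were called lower in F’ vs. B’, with Log2FC values from −2.03 to −1.65. There LOC102598758, LOC102598420 and LOC102599527 passed the filter through their B’ counts. The F’ vs. B’ calls of the 4 held in all 11 alternative settings, among them no filter.

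The fifth locus, LOC102591177 on chromosome 5, had 7.05, 6.84 and 6.03 CPM in F’ and 2.51, 2.36 and 1.95 CPM in B’, against 1.38, 2.71 and 3.17 CPM in A’. It was high in F’ alone. The Log2FC was 1.46 ± 0.242 in F’ vs. A’ (FDR = 0.000341) and 1.54 ± 0.184 in F’ vs. B’ (FDR = 0.000161), and in B’ vs. A’ it was −0.09 (FDR = 0.844). It and XTH31-like were the XTHs called higher in F’ against either other bulk.

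**Figure D4:**
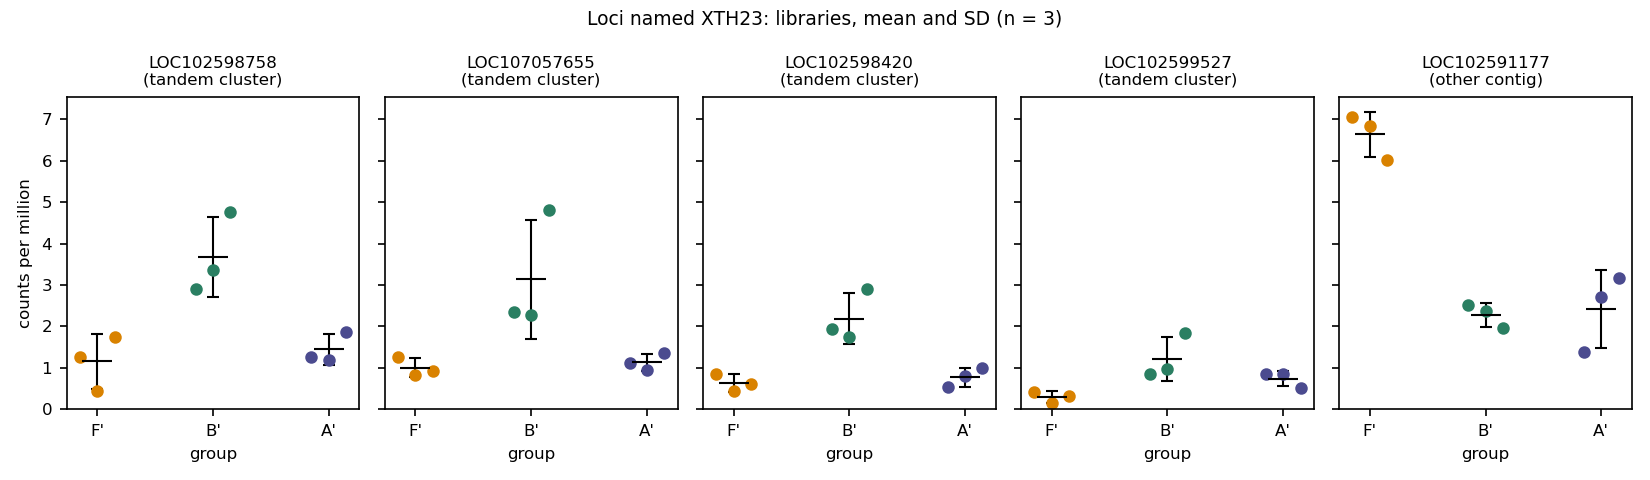
CPM of the 5 loci named XTH23 in F’, B’ and A’, with a point for each library, a horizontal bar for the mean and whiskers for the SD (n = 3). The means of the 4 tandem loci are highest in B’, though the B’ and A’ libraries of LOC102599527 overlap. LOC102591177 on another contig is highest in F’ (6.03 to 7.05).

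A pair of loci named XTH2-like also lie side by side, 4926 bp apart on a contig that the files place, for 1 of the pair, on chromosome 12, and the same limit on near copies applies. LOC102594338 had raw counts of 0, 1 and 0 in F’ and 24, 21 and 19 in B’, against 6, 0 and 6 in A’. LOC102594670 had 3, 0 and 1 in F’ and 21, 18 and 15 in B’, against 2, 6 and 2 in A’. Both had at most 3 counts in each F’ library. Taking 3 counts per library as the floor, their F’ levels were at least 6.54-fold and at least 5.53-fold lower than in B’. Both were called higher in B’ vs. A’, with Log2FC values of 2.06 ± 0.586 (FDR = 0.0187) and 2.09 ± 0.481 (FDR = 0.00625), and neither had enough reads for the test in F’ vs. A’. They passed the filter through their B’ counts, and without the filter the FDR was 0.0210 and 0.00945.

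**Figure D5:**
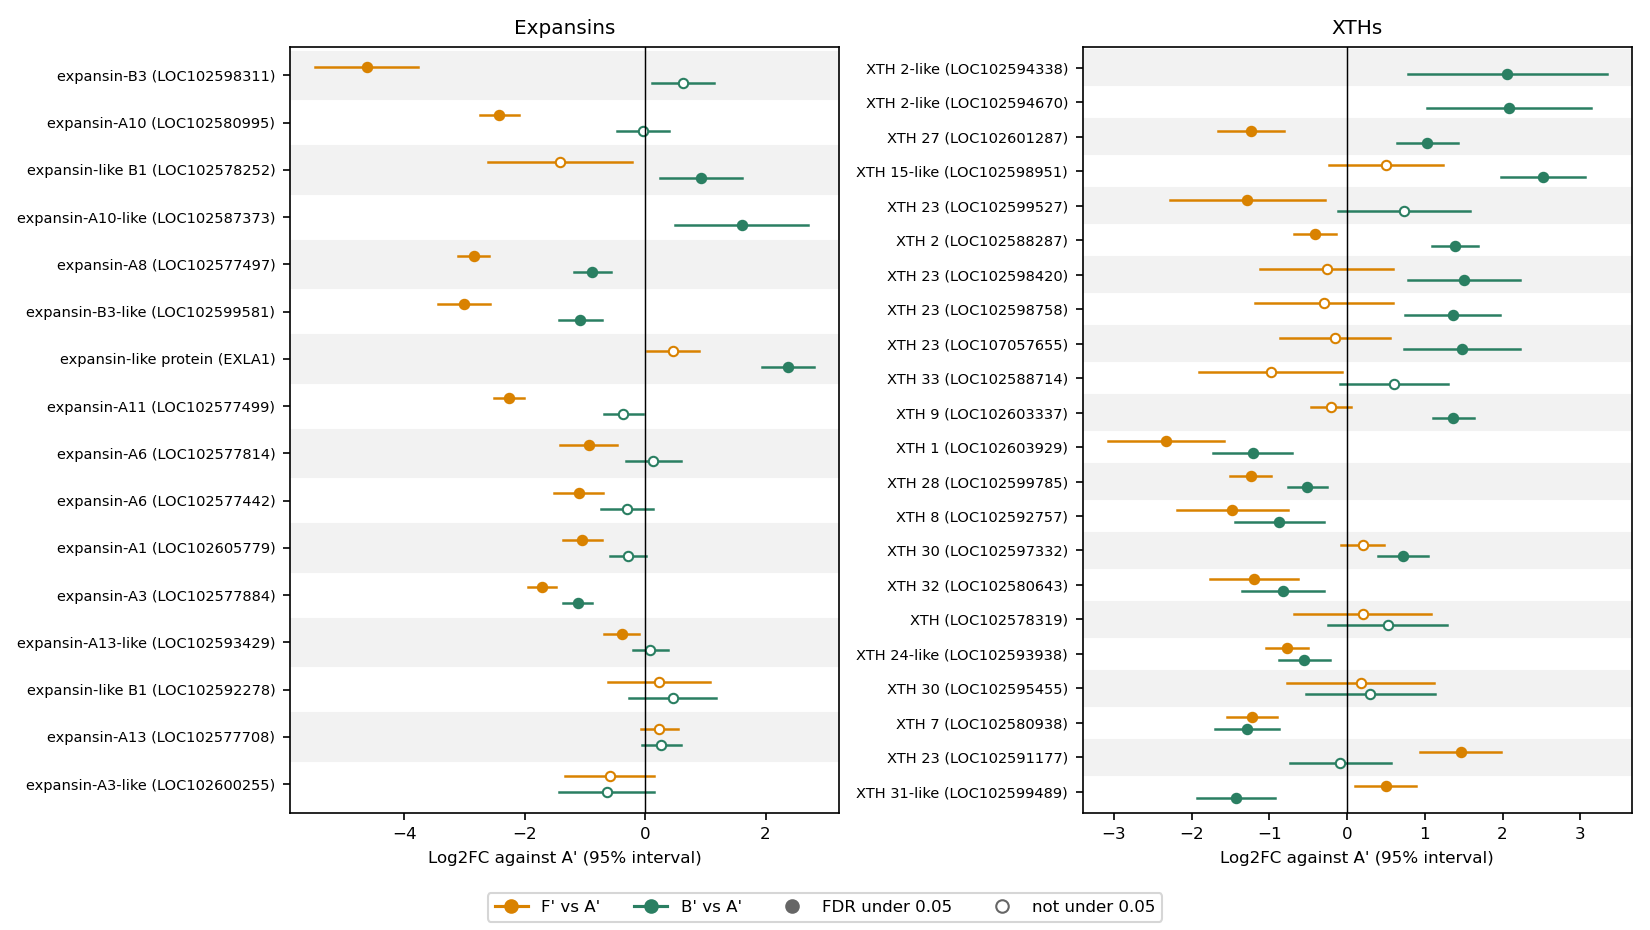
Log2FC of F’ against A’ and of B’ against A’ for each tested expansin (left) and XTH (right), with 95% intervals, filled where the FDR was under 0.05; the 2 comparisons share the A’ libraries, and genes are ordered by their Log2FC in F’ vs. B’ with the lowest at the top. Expansin values of F’ vs. A’ reach −4.63 and include 10 calls below 0, whereas XTH values of B’ vs. A’ run from −1.43 to 2.52.

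Among the 22 tested XTHs, the mean was lowest in F’ for 15 and highest in B’ for 14, in A’ for 6 and in F’ for 2. Some of these XTHs passed the filter of F’ vs. B’ through B’, the bulk in which they were high. Over all genes tested in F’ vs. B’, the mean was lowest in F’ for 31.7% and highest in B’ for 33.5%, in A’ for 32.1% and in F’ for 34.4%. XTH33 (LOC102588714), which in Arabidopsis is held at the plasma membrane, was called only in F’ vs. B’ (Log2FC −1.60, FDR = 0.00899). Its raw counts were 13, 6 and 7 in F’ against 26, 26 and 34 in B’, and it passed the filter there through B’. That call held in all 11 alternative settings, among them no filter. The second XTH30 locus (LOC102595455), which overlaps a gene on the other strand, and LOC102578319, an XTH without a number, were not called in any comparison. The 5 XTHs that were not tested had at most 13 reads in a library.

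Levels of other genes that act on xyloglucan and cellulose were set beside the families. Of all genes tested, 18.2% were called lower and 17.5% higher in F’ vs. A’, and 16.5% lower and 16.4% higher in B’ vs. A’. Of 13 tested genes of xyloglucan synthesis, 7 were called lower and 6 were not called in F’ vs. A’, and 7 were called lower (53.8%) and 2 higher (15.4%) in B’ vs. A’. The share lower in F’ vs. A’ was also 53.8%, and the share higher in B’ vs. A’ was near that of all genes. The median Log2FC was −0.61 and −0.43. Xyloglucan glycosyltransferases of this kind make the glucan backbone in Arabidopsis, and those numbered 5 (LOC102578680) and 12 (LOC102580102) fell in both F’ vs. A’ (−1.50 and −1.44, FDR = 1.81e-05 and 5.19e-06) and B’ vs. A’ (−1.08 and −1.17, FDR = 0.000953 and 0.00144). Xyloglucan glycosyltransferase 4 (LOC102588069) was lower in F’ vs. A’ (−1.37, FDR = 2.95e-05) and higher in B’ vs. A’ (0.56, FDR = 0.0161).

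Enzymes that trim xyloglucan side chains (alpha-xylosidases, beta-galactosidases and alpha-L-fucosidases, some of which act on other glycans) were mixed. Of 17 tested, 7 were called lower and 3 higher in F’ vs. A’, and 6 were called higher and 2 lower in B’ vs. A’. As shares these were 41.2% lower and 17.6% higher in F’ vs. A’, and 35.3% higher and 11.8% lower in B’ vs. A’, of which the share higher in F’ vs. A’ was that of all genes. The beta-galactosidase LOC102589962 shared the directions of XTH27, with a Log2FC of −1.27 in F’ vs. A’ (FDR = 1.51e-05) and 1.44 in B’ vs. A’ (FDR = 3.06e-05).

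Of 12 tested endoglucanases, plant cellulases that cut less ordered glucan chains, 8 were called lower (66.7%) and 2 higher (16.7%) in F’ vs. A’, the second share being near that of all genes, with a median Log2FC of −1.17. In B’ vs. A’, 4 were called lower (33.3%), against 16.5% of all genes, and 8 were not called. Endoglucanase 6 (LOC102578932) fell the most in F’ vs. A’ (−3.57, FDR = 8.05e-08), and endoglucanase 12 (LOC102598742) rose the most (3.09, FDR = 7.14e-05). Of 3 plasma membrane proton pumps, which acidify the wall space in which expansins act, those tested in F’ vs. A’ had Log2FC values between −0.32 and 0.16 and were not called. In B’ vs. A’, PHA2 was lower (−0.72, FDR = 0.00382).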

How the data were processed

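Raw counts per gene and library were deposited by the authors in separate tables for A’ vs. B’ and A’ vs. F’. The authors also deposited signal values (counts divided by size factors), fold changes, p-values and FDR, which were not used. The submitters’ processing notes name Bowtie2 2.1.0, TopHat2 2.0.9 and DESeq2; the counting tool and its use of strand are not given in the sources used here. Contigs carry SolTub_3.0 names.

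All genes of a comparison were fitted with edgeR 4.0.16 (R 4.3.3), with filterByExpr, TMM scaling and the robust quasi-likelihood test. FDR is the Benjamini-Hochberg adjusted p over all genes tested, and ± after a Log2FC is its SE. F’ vs. B’ and CPM used the 22988 genes listed in both tables. The scripts were tested on simulated data. Alternatives were DESeq2 1.42.0, upper-quartile scaling, no filter, the replicate number as a block, a joint fit and leaving out each library. Coding lengths were not used here, so the shares and ranks of genes within a family are of reads and not of transcripts.

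Named genes were, per family and comparison, the 4 highest and 4 lowest Log2FC among members called with a mean of at least 50 counts in either bulk, the 3 members with most reads, members called in opposite directions, members whose libraries of a bulk all had 3 counts or fewer beside a mean of at least 20 in another, and neighbours of the same name. Other named members were chosen after their values were seen. Members and lists were chosen with earlier results of these data known. A list of BRU1 proteins matched no gene, and a calcyclin-binding protein that matched the cyclin words was left out.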

Additional observations from a re-analysis of the deposited data

Results flagged for a closer look

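The calls of 3 XTHs in F’ vs. A’ and in B’ vs. A’ pointed in opposite directions. Since both comparisons use the same A’ libraries, F’ and B’ had to differ for genes chosen in this way, and the F’ vs. B’ values are given as a description. The F’ vs. B’ Log2FC was −1.81 for XTH2 (LOC102588287), −2.28 for XTH27 (LOC102601287) and 1.92 for XTH31-like (LOC102599489). The F’ vs. A’ call of XTH31-like held in only 2 of 11 alternative settings, and that of XTH2 was lost without A’ replicate 3.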

How the results depend on the processing

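No call of a member changed sign in any setting. In F’ vs. A’, 9 of 10 expansin calls and 8 of 11 XTH calls were kept in every setting. In B’ vs. A’, 4 of 6 and 14 of 17 were kept, and in F’ vs. B’, 11 of 13 and 14 of 16. The number of expansins called higher in F’ vs. A’ was 1 with DESeq2 and 1 without the filter, in place of 0, because LOC102592623 entered the test, and leaving out 1 library gave 0 to 2. The number of XTHs called higher in F’ vs. A’ was 1 with DESeq2, 1 without the filter, 1 with the replicate number as a block and 1 in the joint fit, in place of 2, since XTH31-like was lost, and it was between 1 and 2 with a library left out. With a library left out, between 1 and 3 expansins were called higher and between 4 and 7 XTHs lower in B’ vs. A’, and between 0 and 1 expansins were called higher in F’ vs. B’. Among the genes named by the rule, uncalled differences that changed sign with a library left out were those of LOC102591177 in B’ vs. A’ (−0.35 to 0.16), expansin-A10 in B’ vs. A’ (−0.22 to 0.18), LOC102598758 in F’ vs. A’ (−0.73 to 0.062) and XTH7 in F’ vs. B’ (−0.16 to 0.22), and 4 uncalled differences of other members also changed sign. Family medians also moved with the library left out, as for XTHs in F’ vs. A’ (−0.61 to −0.29) and expansins in F’ vs. B’ (−1.53 to −0.96). Same-numbered libraries did not deviate together between A’ and either other bulk (r between −0.252 and 0.00798). Between F’ and B’, r was −0.119, 0.32 and 0.338 for replicates 1, 2 and 3. For unlike numbers of F’ and B’ it was between −0.454 and 0.324. Whether the numbers pair the libraries of F’ and B’ was not settled. Under the replicate block, 29.4%, 30.7% and 36.7% of all genes were called in B’ vs. A’, F’ vs. A’ and F’ vs. B’. Without the block, these shares were 32.9%, 35.6% and 30.0%. Members with few reads set the limit of detection.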
